A study of Mus musculus with 6 samples.

Results

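Processed pseudogenes were examined in total RNA of the mouse lateral ganglionic eminence (LGE), the embryonic source of striatal neurons, at E16.5. The members are all genes that the deposited table types as processed_pseudogene, 246 of 15168 listed genes (1.62%), beside 13514 protein-coding genes. Bulk RNA-seq of 3 *Dlx5/6-CIE; Rosa-Sp9-OE/+* libraries (here the overexpression libraries) was compared with that of 3 *Dlx5/6-CIE* libraries (the controls), to ask which processed pseudogenes differ when *Sp9*, a zinc finger transcription factor of striatal neurons, is forced on. Both groups carry *Dlx5/6-CIE*, a transgene that makes Cre and EGFP in *Dlx5/6*-expressing progenitors of the LGE. The overexpression group also has, at the *Rosa26* locus, an *Sp9* coding sequence behind a CAG promoter and a floxed *LacZ* stop, so only cells that have had Cre, and their descendants, make the extra *Sp9*. According to the methods, controls were littermates and the mice were of mixed C57BL/6J, 129S6 and CD1 background. The methods give an n of 3 or more per group, but whether each library is 1 embryo is not stated. A p-value here therefore measures the spread among the 6 libraries. That spread may be technical, except that control 3 differs from controls 1 and 2 in sex-linked genes (below).

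A processed pseudogene is a copy of a spliced messenger RNA that was reverse transcribed and inserted elsewhere in the genome. It therefore lacks the introns of its parent gene and usually its promoter, and mammalian genomes hold most such copies for short, strongly expressed genes such as those of ribosomal proteins and glycolytic enzymes. Because a recent copy differs from its parent at few bases, a short read from one can be placed on the other. The sources do not state how reads that match several copies were assigned, so each level below is the number of reads that the authors' processing assigned to that copy. Where bases are shared, these values do not show how many of the reads were made by the parent or by another copy.

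By base match to GENCODE M21 transcripts (GRCm38), a parent was found for 245 of the 246 members, 45 by symbol and 200 by the best blastn match, which together name 193 different genes. Identity to the parent was 99% or more in 123 members. The median member shared 61.3% of its stretches of 100 bases with the transcripts of some other gene, 43 members shared all of them, and 24 shared none. In M21, 245 members keep the type processed_pseudogene and 1 is a transcribed_processed_pseudogene. Members lay on 20 chromosomes.

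The libraries held 25126847, 21767904 and 22420424 reads in listed genes in the overexpression group and 19580372, 19410365 and 22174028 in controls. *Sp9* itself was at 178, 268 and 305 CPM (reads scaled to a common library size) in overexpression libraries and at 130, 147 and 170 CPM in controls, without overlap (log2 difference 0.72 ± 0.19 SE, adjusted p = 0.788, limma). *Gt(ROSA)26Sor*, the transcript of the targeted locus, was at 23.0 to 23.2 CPM in overexpression libraries and at 11.8 to 14.2 CPM in controls. *Xist*, the RNA of the inactive X chromosome, stood at 1.37 to 2.33 CPM in overexpression libraries, at 2227 and 2191 CPM in controls 1 and 2 and at 2.35 CPM in control 3, and the Y-linked *Kdm5d* was at 75.8 to 80.6 CPM in overexpression libraries, at 0.1 and 0.05 CPM in controls 1 and 2 and at 73.7 CPM in control 3. The low-*Xist* libraries are thus all 3 of one group and 1 of the other, and results are given below also among these 4 alone where the call differs, with the single control assumed to vary like the overexpression libraries. The 8 LGE markers were all detected and summed to 3771 to 4370 CPM in overexpression libraries and 3476 to 3805 CPM in controls. Of markers of other cells, the 4 of pyramidal neurons summed to 19.4 to 31.4 CPM in overexpression libraries and 5.28 to 72.9 CPM in controls, and the 4 of microglia to 52.5 to 192 CPM in overexpression libraries and 179 to 234 CPM in controls. The 4 of red blood cells summed to 1509 to 1679 CPM in overexpression libraries and 1359 to 1654 CPM in controls, and the 4 of endothelial and mural cells to 124 to 133 CPM in overexpression libraries and 127 to 147 CPM in controls. Their part in the results below was not tested. None of these markers was at 0 and none passed the threshold. In bulk tissue, fewer cells of a type and less RNA per cell cannot be told apart.

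A minimum of 0.5 CPM in 3 or more libraries kept 242 members, 187 of them with a mean of 1 CPM or more. *Rpsa-ps10* and *Rpl14-ps1*, copies of ribosomal protein genes, rose in the overexpression libraries and *Gm13394*, a copy of *Gapdh*, fell, at an adjusted p under 0.05 from limma over all 15102 genes kept. These are 3 of 242 members (1.24%), where 0.0265% of all genes kept passed (4 genes), 0.0199% higher and 0.00662% lower. DESeq2 on recovered reads called 6 of the 241 members to which it gave an adjusted p (2.49%), where 0.225% of all 15094 such genes passed. Without adjustment, 11 members (4.55%), 4 higher and 7 lower, had p under 0.05 in limma, beside 5.52% of all genes (2.68% higher and 2.84% lower). Groups did not overlap in 21 members (8.68%), 10 higher and 11 lower, beside 11.2% of all genes (5.46% higher and 5.73% lower). Apart from the few members described next, the processed pseudogenes thus showed group differences at about the rate of the other genes.

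*Rpsa-ps10* (ENSMUSG00000047676, chromosome 3, 150072658 to 150073542, 1 exon) is a copy of *Rpsa*, which encodes a protein of the small ribosomal subunit that is also known as a laminin receptor. It was at 257, 252 and 237 CPM in overexpression libraries and at 4.66, 4.68 and 5.51 CPM in controls. The lowest overexpression library was far above the highest control (249 ± 10.1 and 4.95 ± 0.48 CPM, SD, n = 3 each), a log2 difference of 5.52 ± 0.08 (SE, adjusted p = 3.79e-08, limma), and the call held under all 16 alternatives. Over its 885 bases the copy differs from the *Rpsa* transcript at 6 positions and has no gap, where positions count from 1 at the 5′ end of the copy and the base of the parent is written first: C25A, T210C, C219T, C345G, C696T and G858A. The stretch with the closest pair of differences is shown for the copy (chr3:150073285-150073374, minus strand) and for exons 3 and 4 of the parent (within chr9:120129193-120130123, plus strand), with the differing bases in capitals. All printed windows were chosen after the values were seen.
Rpsa-ps10: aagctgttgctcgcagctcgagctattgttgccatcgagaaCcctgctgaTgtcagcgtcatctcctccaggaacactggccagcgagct
Rpsa: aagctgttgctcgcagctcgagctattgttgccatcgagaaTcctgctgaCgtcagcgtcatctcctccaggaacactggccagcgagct

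The parent, *Rpsa* on chromosome 9, was at 916, 897 and 880 CPM in overexpression libraries and at 1087, 1122 and 1050 CPM in controls. It was lower without overlap but did not pass the threshold (log2 difference -0.27 ± 0.06 SE, adjusted p = 0.766, limma), and only DESeq2 among the 16 alternatives called it (adjusted p from 0.000219 to 0.99997 over the alternatives). Summed over copy and parent, the reads came to 1173, 1149 and 1117 CPM in overexpression libraries and to 1092, 1126 and 1055 CPM in controls, so the groups overlapped. The mean difference of the copy, 244 CPM, and that of the parent, -189 CPM, had opposite signs. The other listed copy of the same parent, *Rpsa-ps2* on chromosome 10, was at 0.781, 1.03 and 1.04 CPM in overexpression libraries and at 0.902, 1.54 and 1.07 CPM in controls, and overlapped between the groups.

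*Rpl14-ps1* (ENSMUSG00000046721, chromosome 7, 45324965 to 45325617) is a copy of *Rpl14*, a protein of the large ribosomal subunit. It was at 8.99, 9.19 and 7.38 CPM in overexpression libraries and at 1.7, 2.24 and 2.44 CPM in controls, again without overlap. The log2 difference was 1.78 ± 0.16 (SE, adjusted p = 0.0174, limma). The call was lost with the replicate number as a block (adjusted p = 0.285), among the low-*Xist* libraries alone (1.61, adjusted p = 0.223), with the *Xist* level as a covariate (1.6, adjusted p = 0.395), and without overexpression library 1 (adjusted p = 0.0634), overexpression library 2 (adjusted p = 0.241) or control 2 (adjusted p = 0.13). Over all alternatives its adjusted p ran between 3.82e-13 (DESeq2) and 0.395. *Rpl14*, on chromosome 9 like *Rpsa*, was at 326, 327 and 315 CPM in overexpression libraries and at 353, 384 and 345 CPM in controls (log2 difference -0.16 ± 0.06 SE, adjusted p = 0.788, limma). *Trpm4* overlaps the copy on the opposite strand, and since the sources do not state whether counting used strand, its reads cannot be told apart from those of the copy. The copy has 4 base differences from the parent, C420T, A423G, C566T and A567G, and 1 gap. The adjacent pair lies in the window shown (chr7:45325485-45325574, plus strand, against exon 6 of *Rpl14*, chr9:120574264-120574353, plus strand).
Rpl14-ps1: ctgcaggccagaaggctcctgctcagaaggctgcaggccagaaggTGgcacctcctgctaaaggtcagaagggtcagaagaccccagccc
Rpl14: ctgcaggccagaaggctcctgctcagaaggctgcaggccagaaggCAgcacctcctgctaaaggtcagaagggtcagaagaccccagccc

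*Gm13394* (ENSMUSG00000083773, chromosome 2, 28933610 to 28934609) is a copy of *Gapdh*, the glycolytic enzyme glyceraldehyde-3-phosphate dehydrogenase, and overlaps *Cfap77* on the same strand. It was at 117, 115 and 109 CPM in overexpression libraries and at 216, 235 and 232 CPM in controls. Every overexpression library was below every control (114 ± 3.95 and 228 ± 10.3 CPM, SD, n = 3 each), with a log2 difference of -0.995 ± 0.05 (SE, adjusted p = 4.75e-04, limma) that held under all 16 alternatives. *Gapdh* on chromosome 6 was at 1134, 1100 and 998.6 CPM in overexpression libraries and at 972, 1080 and 1005 CPM in controls, and the groups overlapped. Over 1000 bases the copy has 1 difference, A346C, which is shown in its window (chr2:28934220-28934309, minus strand, against exons 3 and 4 of *Gapdh* within chr6:125162972-125163159, minus strand). A read that does not cross this base is the same for both.
Gm13394: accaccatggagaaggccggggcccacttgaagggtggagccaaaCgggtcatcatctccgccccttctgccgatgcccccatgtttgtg
Gapdh: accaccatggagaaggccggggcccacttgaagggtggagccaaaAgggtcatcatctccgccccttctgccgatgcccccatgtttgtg

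*Gm7336* on chromosome 7 is a further copy of *Gapdh*, with 1 base difference (G7A, in the leader of the parent transcript) and 1 gap in 1230 aligned bases. It was at 28.4, 25.9 and 24.3 CPM in overexpression libraries and at 40.6, 40.6 and 41.2 CPM in controls. The groups did not overlap, but the log2 difference of -0.63 ± 0.07 missed the threshold (adjusted p = 0.0699, limma). The remaining 3 *Gapdh* copies are less alike to the parent (71.4 to 87.7% identity) and were low: *Gm17022* was at 1.49, 1.57 and 1.86 CPM in overexpression libraries and at 1.96, 2.44 and 1.87 CPM in controls (log2 difference -0.27, adjusted p = 0.789, limma), and *RP24-545B2* and *RP24-243A15* overlapped between the groups.

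*Gm5514* on chromosome 19 is a copy of *Ldhb*, the B subunit of lactate dehydrogenase, which like *Gapdh* lies on chromosome 6. It was at 4.3, 3.94 and 4.25 CPM in overexpression libraries and at 8.82, 7.91 and 7.02 CPM in controls. Its log2 difference of -0.85 ± 0.13 did not pass the threshold (adjusted p = 0.292, limma), while DESeq2 on recovered reads called it (adjusted p = 0.00325) as well as *Gm7336* (adjusted p = 1.88e-07). The other 15 alternatives called neither, with adjusted p of up to 0.99997 for *Gm5514* and 0.755 for *Gm7336*. *Ldhb* was at 219, 230 and 222 CPM in overexpression libraries and at 240, 236 and 219 CPM in controls. The copy differs from *Ldhb* at 20 of 1002 bases, of which the window with 5 is shown (chr19:21938232-21938321, plus strand, against exon 8 of *Ldhb*, chr6:142490500-142490589, minus strand). It shares 11.7% of its stretches of 100 bases with other genes, beside 88.9% for *Gm13394*.
Gm5514: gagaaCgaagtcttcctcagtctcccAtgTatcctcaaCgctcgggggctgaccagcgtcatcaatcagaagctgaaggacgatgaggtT
Ldhb: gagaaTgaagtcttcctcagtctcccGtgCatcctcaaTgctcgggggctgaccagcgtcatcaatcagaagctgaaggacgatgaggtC

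**Figure D1:**
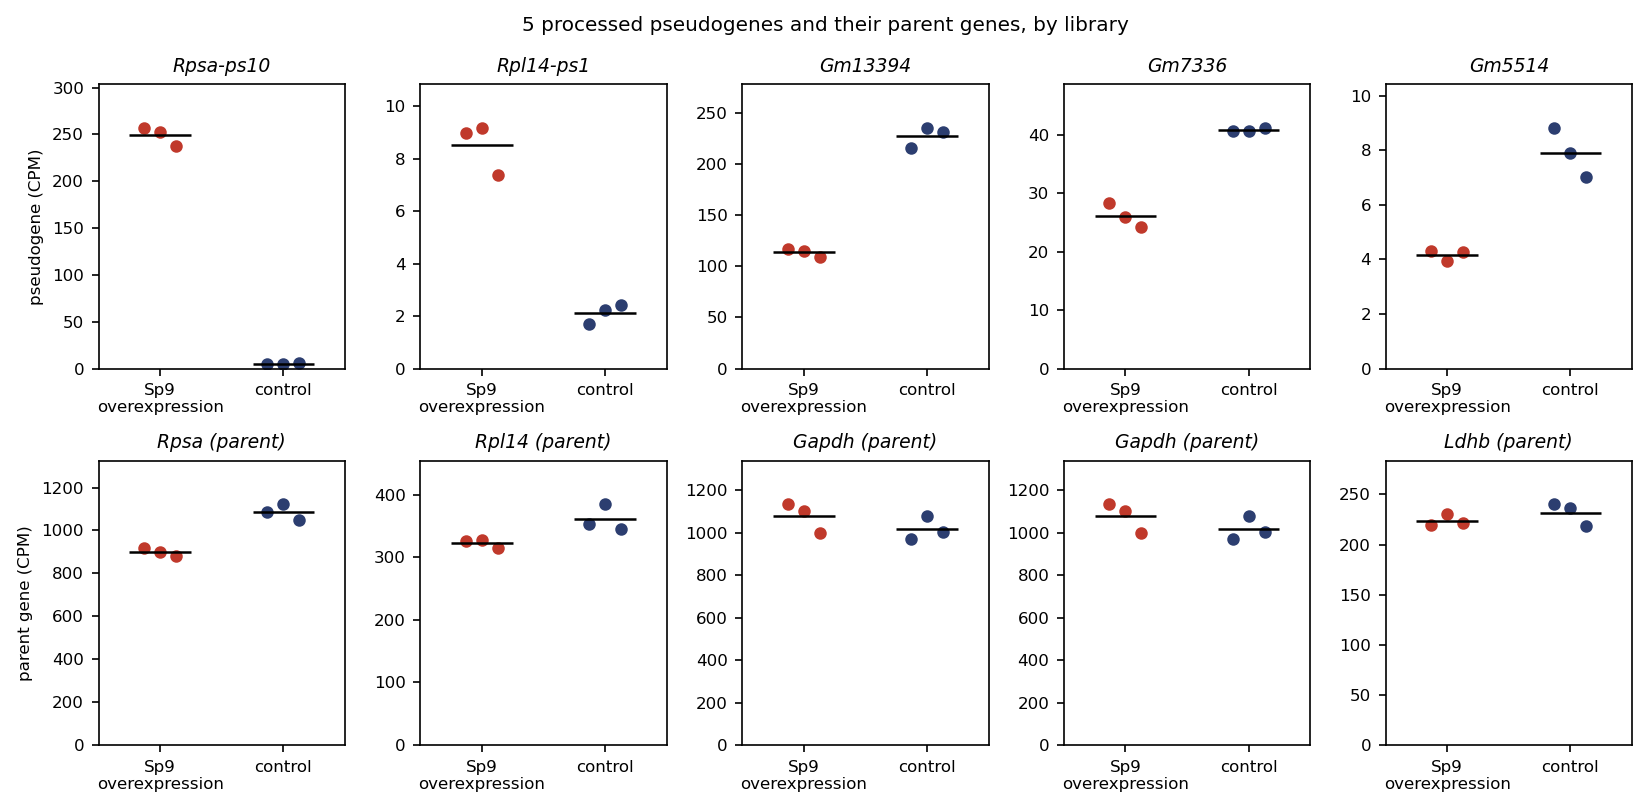
Level in CPM (vertical axis, starting at 0) of *Rpsa-ps10*, *Rpl14-ps1*, *Gm13394*, *Gm7336* and *Gm5514* (top) and of their parent genes (bottom) in the 3 *Sp9* overexpression libraries (red, left) and the 3 controls (blue, right), with 1 point per library and the group mean as a line. In the top row no overexpression library overlaps a control, with the widest gap for *Rpsa-ps10*, while in the bottom row *Gapdh* and *Ldhb* overlap and *Rpsa* and *Rpl14* are lower by 0.27 and 0.16 on the log2 scale.

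*Gapdh* and *Ldhb* both lie within 40 Mb of *Gt(ROSA)26Sor*, the locus that carries the transgene (chromosome 6, 113067428 to 113077333). Among 11 kept members whose parent lies in this interval, 4 (*Gm13394*, *Gm7336*, *Gm5514* and *Gm17022*) were lower without overlap and none was higher, beside 5.73% of all genes kept that were lower without overlap and 11.2% without overlap in either direction. These 4 come from only 2 parents and sit on chromosomes 2, 7, 19 and 8. *Gm13394*, the member that fell past the threshold, is among them, so this count is no support for a role of the interval. Of the 8 kept members that lie themselves within 40 Mb of *Gt(ROSA)26Sor*, none had groups without overlap, a number too small to set apart from the 11.2% of all genes. *Rpsa* and *Rpl14*, the parents of both members that rose, start at 120127689 and 120571444 on chromosome 9. Of 15 kept members with a parent on chromosome 9, 3 were higher and 1 was lower without overlap. The shares over all genes kept were 5.46% higher and 5.73% lower. *Rpsa-ps10* and *Rpl14-ps1*, whose parents led to this chromosome, are among the 3, so this count is no support for a role of the chromosome. Of 14 with a parent on chromosome 17 and of 8 with a parent on the X chromosome, 1 each was lower without overlap and none higher, and no kept member had a parent on the Y chromosome. The parents' positions were looked up after the values were seen.

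*RP23-354J5* (ENSMUSG00000111133, chromosome 9, 42964872 to 42966080) had its best match in *Sp140*, a nuclear body protein gene, and was named after its values were seen, since it has a mean under 1 CPM. It had 0 reads in all 3 overexpression libraries and 40, 58 and 23 reads in controls (2.01, 2.89 and 1.02 CPM). It passed the minimum of 0.5 CPM only through the 3 controls, so lower was the only direction it could show. Its fall and the calls below are therefore a description and no support for a change. Set against a floor of 3 reads in each overexpression library, its control mean of 1.97 CPM was at least 15.3-fold higher. That limit covers counting error only and would be smaller against control 3 alone. limma at a pseudocount of 0.5 did not call it (adjusted p = 0.145, and 2.72e-06 to 0.836 over the alternatives), and it was called with a pseudocount of 0.1, by DESeq2 and without control 3.

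The other members with a mean of 1 CPM or more and no overlap had smaller differences, and none passed the threshold (adjusted p of 0.788 or more, limma). Higher were *Gm11400*, a copy of the elongation factor *Eef2* (1.49, 1.66 and 1.09 CPM in overexpression libraries, 0.752, 0.945 and 1.07 CPM in controls), *Gm4247*, a copy of the chaperone *Dnajb6* (log2 difference 0.33), *Gm8355*, of the heat shock cognate *Hspa8* (0.27), *Gm12174*, of *Rpl7* (0.23), and *Gm12715*, of the cytoplasmic actin *Actg1* (0.20). Lower were *Gm6548*, a copy of the elongation factor *Eef1a1* (1.68, 1.61 and 1.58 CPM in overexpression libraries, 2.01, 2.44 and 2.66 CPM in controls), *Rpl17-ps10* (-0.39), *RP23-356P21*, of the chromatin protein *Hmgb2* (-0.26), *Gm10259*, whose best match is the predicted gene *Gm10184* (-0.25), and *Rpl19-ps11* (-0.12).

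**Figure D2:**
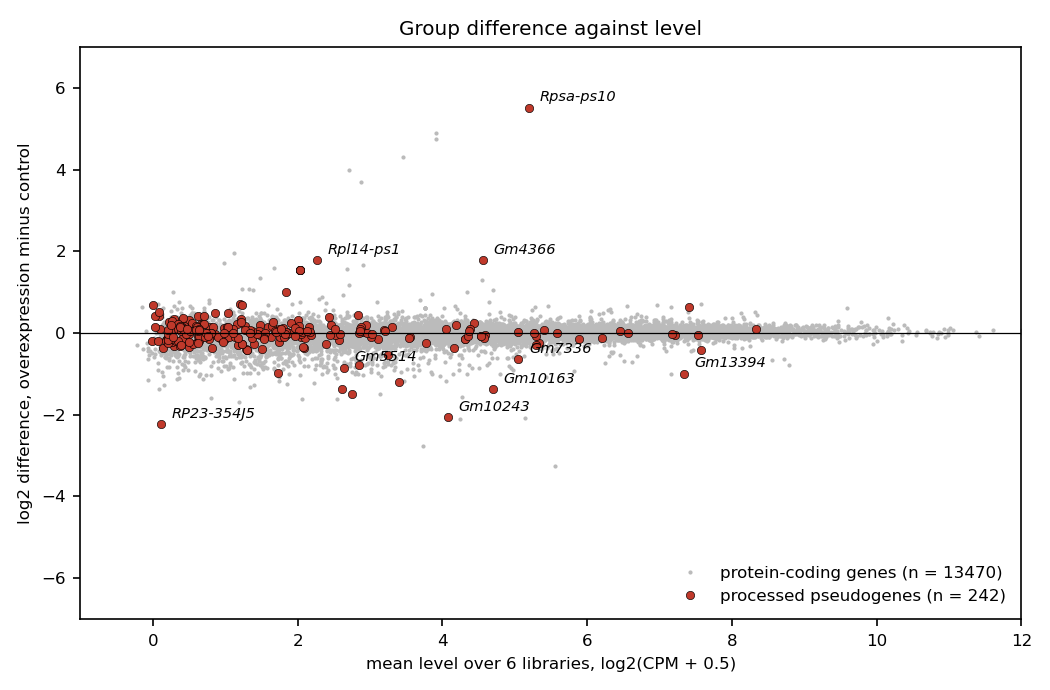
Difference between group means of log2(CPM + 0.5), overexpression minus control (vertical axis), against the mean level over 6 libraries on the same log2 scale (horizontal axis), for 242 processed pseudogenes (red) and 13470 protein-coding genes (grey). *Rpsa-ps10* stands at 5.52 above all other members, and most red points lie in the grey band around 0.

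By parent, 46 members were copies of genes for large subunit ribosomal proteins and 25 of genes for small subunit proteins, and together these families held 28.4% and 5.68% of the members' CPM. In the large subunit family 1 of 46 kept members rose past the threshold (*Rpl14-ps1*) and none fell past it. The median log2 difference was -0.01, with 21 above 0 and 25 below, and 3 were higher and 2 lower without overlap. In the small subunit family 1 of 24 rose past the threshold (*Rpsa-ps10*), the only one without overlap, with a median of -0.03, 9 above 0 and 15 below. The glycolysis family had 8 members, of which 1 fell past the threshold (*Gm13394*) and none rose past it, with a median of -0.06. In this family 3 members, all copies of *Gapdh*, were lower without overlap and none was higher. Over all genes kept, 5.46% were higher and 5.73% lower without overlap. None passed the threshold in the families of translation factors (5 kept), chromatin and nuclear proteins (9), cytoskeleton (4) and respiratory chain (5), nor among the 141 other kept members. Over all kept members the median log2 difference was -0.00035, with 119 above 0 and 123 below, beside a median of 0.00052 and 50.2% above 0 over all genes. The 81 protein-coding ribosomal protein genes, the parents of the first families and others, had a median of -0.06, 77 below 0 and 4 above, and none passed the threshold.

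Processed pseudogenes took 0.308, 0.326 and 0.309% of the reads in overexpression libraries and 0.307, 0.318 and 0.294% in controls. Their summed level was 3113 ± 80.6 CPM in overexpression libraries and 2990 ± 89.6 CPM in controls (SD, n = 3 each), a difference of 124 CPM with overlapping groups (exact two-sided permutation test, p = 0.2, where 0.1 is the smallest p that 3 against 3 allow). Without *Rpsa-ps10* the sums were 2864 ± 86.2 CPM in overexpression libraries and 2985 ± 90.1 CPM in controls, which turned the difference to -120 CPM (exact permutation p = 0.3). Most of this is *Gm13394*, still in these sums, with means of 114 CPM in overexpression libraries and 228 CPM in controls. The -120 CPM is therefore not a fall shared by the remaining members. The 10 members with the highest mean CPM held 54.6% of the sum. Besides *Rpsa-ps10* and *Gm13394* these were *Gm15459* (parent *Hspa8*), *Gm15772* (*Rpl26*), *Gm1821* (*Ubb*, a polyubiquitin gene), *Gm14150* (*Tuba1b*, an alpha tubulin), *Rpl3-ps1*, *Vcp-rs* (*Vcp*, an ATPase that extracts ubiquitinated proteins), *Gm8730* (*Rplp0*) and *Gm8210* (*Rpl29*). Per kilobase of transcript, *Gm15772* was the highest of all members at 448 CPM per kb and *Gm1821* followed at 253 CPM per kb. *Rpl3-ps1*, at 148, 143 and 146 CPM in overexpression libraries and 145, 160 and 144 CPM in controls, and *Vcp-rs*, at 143, 135 and 150 CPM in overexpression libraries and 142, 145 and 151 CPM in controls, were steady in all 6 libraries, while several of the others stepped between levels within a group.

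The within-group SD, pooled over both groups on the log2(CPM + 0.5) scale, shows where processed pseudogenes varied more between libraries than protein-coding genes of a similar level. At low levels they did not. In the bin of mean log2 level 0 to 1 (0.5 to 1.5 CPM) the median SD was 0.27 over 94 members and 0.30 over 835 protein-coding genes, and in the bin of 1 to 2 it was 0.22 over 61 members and 0.25 over 1031 genes. From level 2 upward more members stood apart. In the bin of 2 to 3, 12 of 38 members (31.6%) exceeded the 90th percentile of protein-coding genes, and in the bin of 4 to 5 (15.5 to 31.5 CPM) 9 of 16 did, with a median SD of 0.43 over members and 0.11 over 2311 genes. Above level 5, pooled into 1 bin, 9 of 20 members exceeded it, with medians of 0.14 and 0.08. The bin of 3 to 4 was an exception, with 2 of 11 members above the 90th percentile and medians of 0.14 and 0.15. In all, 44 of 242 members exceeded the 90th percentile of their bin. Of 36 members at level 4 or more, 5 had an SD above 1, which 8 of 8807 protein-coding genes of that level had. Some members had the same reads in every library, and with those counted once the numbers were 9 of 35 in the bin of 2 to 3, 8 of 15 in the bin of 4 to 5 and 40 of 238 in all above the 90th percentile, and 4 of 35 at level 4 or more with an SD above 1. Counting noise estimated from recovered reads had a median of 0.06 for the members of the bin of 4 to 5, well under their spread. Sharing of bases went with the extremes only in part: 10 of 36 members with all their stretches of 100 bases shared had an SD above 1, or 6 of 32 with equal reads counted once, beside 0 of 15 with none shared (members at 1 CPM or more). The median SD was 0.20 in the first set, or 0.18 with equal reads counted once, and 0.26 in the second, and their median levels were 4.98 and 1.39 CPM.

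**Figure D3:**
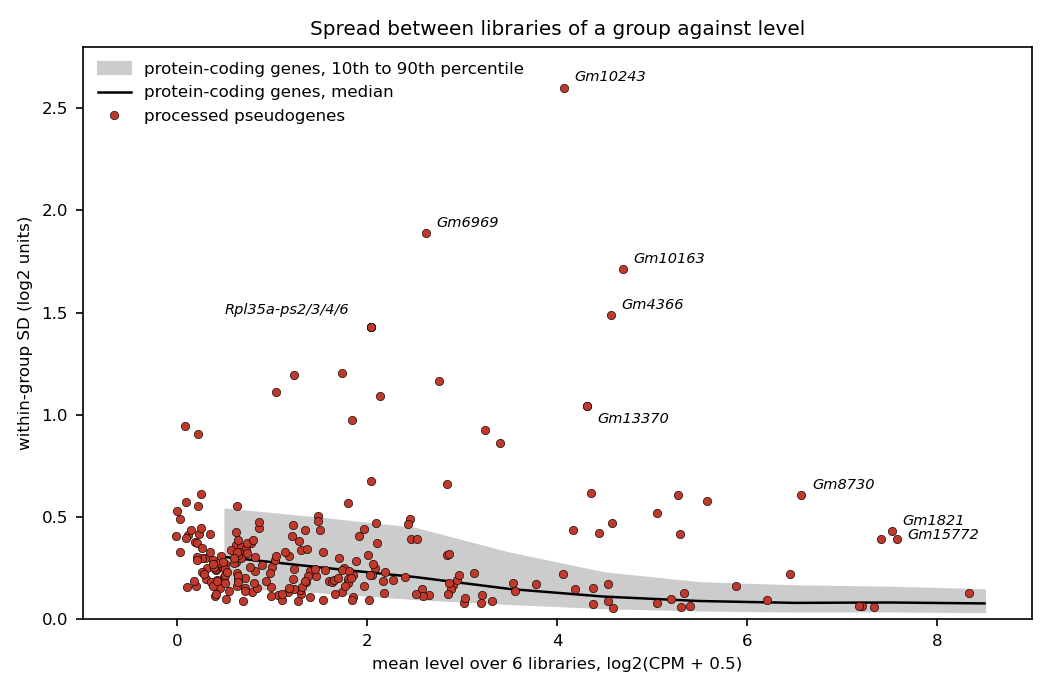
Pooled within-group SD of log2(CPM + 0.5) (vertical axis) against mean level over 6 libraries (horizontal axis, log2 units) for 242 processed pseudogenes (red points), with the median (line) and the 10th to 90th percentile (band) of protein-coding genes in bins of 1 log2 unit. Below a level of 2 most red points lie in the band, and above 4 many stand over it (18 of 36, or 17 of 35 with equal reads counted once), with *Gm10243* the highest at 2.601.

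Several of the members with high spread were copies with the same sequence. *Gm10243* on chromosome 6 and *Rpl35a-ps2*, *Rpl35a-ps3*, *Rpl35a-ps4* and *Rpl35a-ps6* on chromosomes 1, 17, 2 and 5 have identical transcripts of 333 bases, which differ from *Rpl35a*, a large subunit protein gene, at 1 base. Their shared window holds that base (chr6:48523628-48523717, plus strand, for *Gm10243*, against exons 3 and 4 of *Rpl35a* within chr16:33057489-33058714, plus strand).
Gm10243: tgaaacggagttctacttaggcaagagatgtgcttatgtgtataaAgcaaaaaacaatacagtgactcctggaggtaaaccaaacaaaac
Rpl35a: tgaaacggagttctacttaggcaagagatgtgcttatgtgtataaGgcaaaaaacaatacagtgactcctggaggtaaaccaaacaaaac

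*Gm10243* was at 25.5, 42.5 and 0 CPM in overexpression libraries and at 37.3, 68 and 15.1 CPM in controls (SD 2.601). Each of the 4 *Rpl35a-ps* copies had the same value as the others in every library, 8.91, 4.53 and 6.83 CPM in overexpression libraries and 5.62, 0 and 4 CPM in controls (SD 1.43), down to the same recovered reads (228, 101, 151, 112, 0 and 90). Where *Gm10243* was listed at 0 these 4 were not, and where they were at 0 *Gm10243* was at its highest. Summed over the 5 copies, the reads came to 61.1, 60.6 and 27.3 CPM in overexpression libraries and to 59.8, 68 and 31.1 CPM in controls, and the SD of the sum was 0.63. The sum was low in library 3 of each group and close together in the remaining 4 libraries. It takes the equal reads of the 4 *Rpl35a-ps* copies as separate reads. Whether the same reads were counted at each copy is not stated, and counted once they would give another sum and spread. The values of the single copies cannot be read as the level of any 1 locus.

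Of the copies of *Rpl21*, another large subunit protein gene, 3 behaved alike. *Rpl21-ps15*, a lower copy, had an SD of 0.27 at a mean log2 level of 0.50 and is not in the sum below. *Gm10240* and *Gm13370* (chromosomes 15 and 2) have the same 483 bases and the same reads in every library, 49.1, 6.27 and 19.7 CPM in overexpression libraries and 26.3, 17.5 and 18.1 CPM in controls, and the 481 bases of *Gm10163* (chromosome 9) are contained in them. *Gm10163* was at 4.81, 89.1 and 8.24 CPM in overexpression libraries and at 50.3, 76.5 and 18 CPM in controls (SD 1.71). Over these 3 copies the sum was 103, 102 and 47.6 CPM in overexpression libraries and 103, 111 and 54.2 CPM in controls. Its SD was 0.60, below the 1.04 of the steadiest of the 3. In this sum too library 3 of each group was low. It likewise takes the equal reads of *Gm10240* and *Gm13370* as separate reads, which is not known.

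In several pairs the level of the parent ran opposite to that of the copy, and of those described *Rpl34-ps1* and *Gm9825* were chosen after their values were seen. *Gm15772* (chromosome 5), a copy of *Rpl26* with 2 differences in 438 bases (C177T and T288C), was at 107, 216 and 195 CPM in overexpression libraries and at 221, 235 and 204 CPM in controls. *Rpl26* was at 223, 89.9 and 84.3 CPM in overexpression libraries and at 93.9, 99.4 and 92.3 CPM in controls, so that overexpression library 1 was the lowest of the 6 for the copy and the highest for the parent. Their sum was 330, 306 and 279 CPM in overexpression libraries and 315, 335 and 296 CPM in controls. Over all 6 libraries the SD of the log2 level was 0.42 for the copy, 0.53 for the parent and 0.10 for the sum. The window with the first difference is shown (chr5:3236562-3236651, plus strand, against exons 2 and 3 of *Rpl26* within chr11:68902406-68903231, plus strand).
Gm15772: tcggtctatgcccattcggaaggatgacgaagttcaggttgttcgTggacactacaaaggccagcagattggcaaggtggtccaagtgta
Rpl26: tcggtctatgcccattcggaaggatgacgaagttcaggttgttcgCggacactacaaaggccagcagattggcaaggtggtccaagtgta

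*Rpl34-ps1* was at 40.5, 36.7 and 71.3 CPM in overexpression libraries and at 78.4, 41.1 and 33.2 CPM in controls, and *Rpl34* was lowest in the same 2 libraries in which the copy was highest, at 149 CPM in overexpression library 3 and 157 CPM in control 1 (148.9 to 242.8 CPM over all 6). *Gm9825* was at 46.7, 49.7 and 23.7 CPM in overexpression libraries and at 47.4, 51 and 23 CPM in controls, and its parent *Rnps1*, an RNA-binding protein of the exon junction complex, was highest where the copy was lowest, at 174 and 168 CPM in library 3 of each group. *Gm4366*, a copy of the elongation factor subunit *Eef1g*, was at 68.6, 34.9 and 34.2 CPM in overexpression libraries and at 63.8, 5.03 and 5.24 CPM in controls (SD 1.49), and *Eef1g* was at 502, 522 and 550 CPM in overexpression libraries and at 514, 608 and 591 CPM in controls. The log2 difference of *Gm4366* (1.79, adjusted p = 0.788, limma) passed the threshold in 1 of 16 alternatives, without control 1 (2.96, adjusted p = 0.0285, and up to 0.99997 over the alternatives that gave one). For these 3 pairs the SD over 6 libraries was 0.28, 0.19 and 0.11 for the parents and 0.12, 0.06 and 0.05 for the sums. *Gm6969* (chromosome 12), a copy of the respiratory chain gene *Cox7a2l*, was at 6.92, 14.7 and 0 CPM in overexpression libraries and at 6.27, 15.5 and 8.21 CPM in controls (SD 1.89), with no read in overexpression library 3, which allows up to 0.136 CPM there (3 reads, counting error only).

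The same was counted over all 183 pairs of a member at 1 CPM or more with a kept parent. In 38 pairs the range of the copy over the 6 libraries was 5% or more of the mean of its parent. In 25 of these the parent was lower in the library where the copy was highest than where it was lowest, and in 30 the sum varied less than the parent, with median SDs of 0.10 for the sum and 0.14 for the parent. In the 145 pairs with a smaller range, 66 had the parent lower and 92 the smaller spread of the sum, with medians of 0.07 for both. Adding a level that does not follow the parent can itself lower the SD on the log2 scale. A smaller spread of the sum alone therefore does not show that copy and parent ran opposite. Several of the 38 pairs share a parent (30 parents in all), so they are not separate observations. *Gm13394* was among the exceptions, since *Gapdh* was higher in control 2, where the copy was highest, than in overexpression library 3, where it was lowest.

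**Figure D4:**
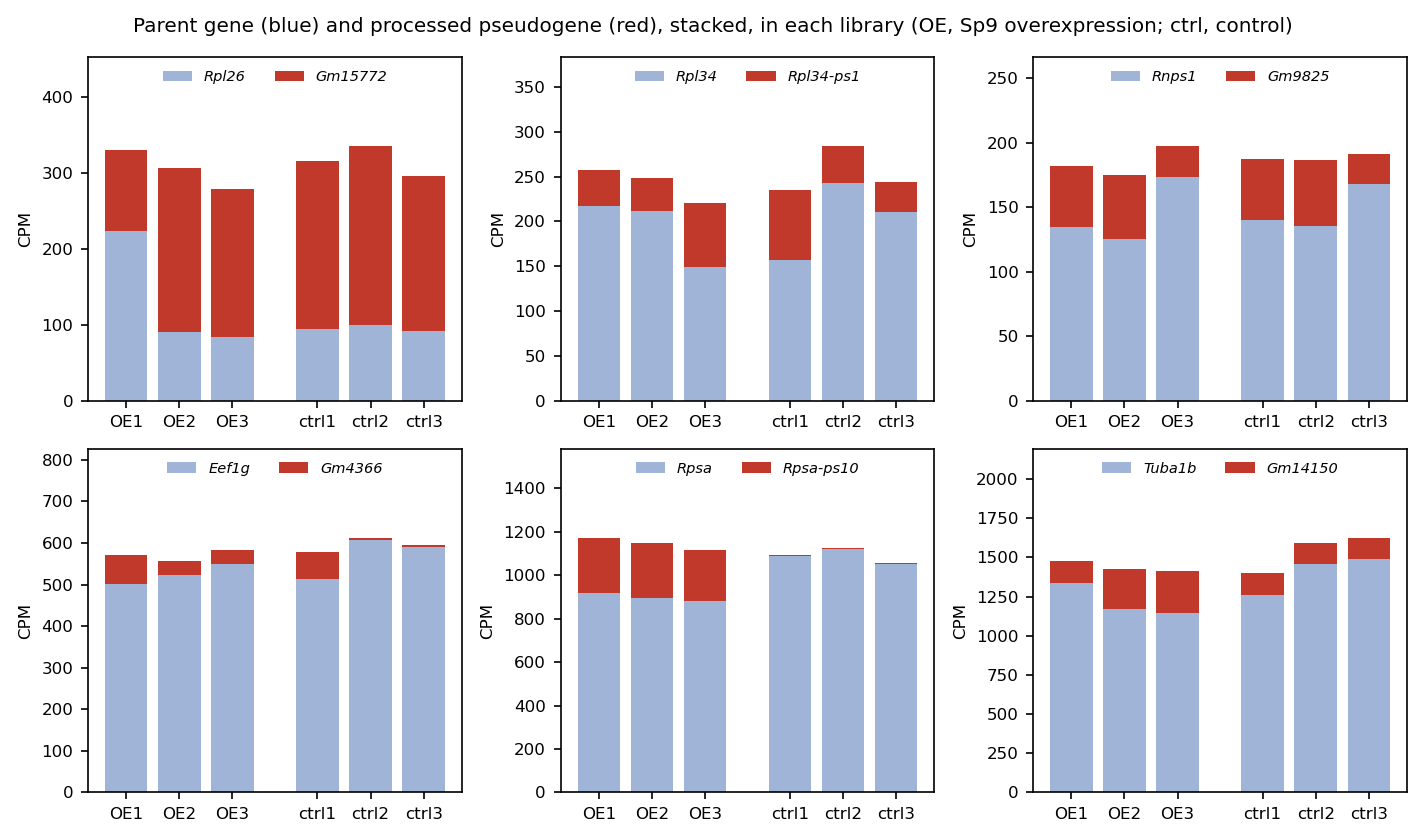
CPM in each of 3 *Sp9* overexpression libraries (OE, left) and 3 controls (ctrl, right) of 6 parent genes (blue) with the processed pseudogene copied from each stacked on top (red); the axes start at 0. The red part of *Gm15772* is lowest in OE1 where the blue part of *Rpl26* is highest, and the total height varies less than either part.

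Some members with a common parent had the same lowest or highest library, and the examples given here, apart from *Gm8730* and *Gm14150*, were chosen after their values were seen. The 3 copies of *Npm1*, a nucleolar protein, were all lowest in control 1: *RP23-184H3* was at 24.4, 22 and 23 CPM in overexpression libraries and at 11.9, 26 and 23.4 CPM in controls, *Gm14681* was at 2.81 CPM in control 1 and at 5.2 CPM or more elsewhere, and *RP24-389J11* was at 4.46 CPM in control 1 and at 6.61 CPM or more elsewhere. *Gm8730*, a copy of *Rplp0* of the ribosomal stalk, was at 121, 118 and 59.2 CPM in overexpression libraries and at 118, 125 and 57.1 CPM in controls. The other *Rplp0* copies, *Gm14165* and *Gm9625*, were also lowest in library 3 of each group. *Gm14150*, a copy of *Tuba1b*, was at 136, 255 and 273 CPM in overexpression libraries and at 141, 130 and 134 CPM in controls, and *Gm3756*, of the same parent, was at 5.63, 9.28 and 9.19 CPM in overexpression libraries and at 4.76, 5.72 and 6.62 CPM in controls. Both were high in overexpression libraries 2 and 3 and not in library 1, but neither their lowest nor their highest library was the same, and the third *Tuba1b* copy, *Gm5620*, overlapped between the groups (0.899, 1.93 and 1.04 CPM in overexpression libraries, 1.4, 1.29 and 1.2 CPM in controls). Neither *Gm14150* nor *Gm3756* passed the threshold (adjusted p = 0.788 for both, limma), and *Gm14150* passed it in 1 of 16 alternatives, without overexpression library 1 (log2 difference 0.96, adjusted p = 0.00399, and up to 0.99997 over the alternatives). The copies of *Bex4*, *Gm12245* and *Gm4322*, were both lowest in control 2 (1.79 and 2.44 CPM). The *Rpl17* copies *RP23-464F18* and *Rpl17-ps5* were both highest in control 2 and next in overexpression library 3. Not all copies of *Rpl17* did so: *Rpl17-ps10* was highest in control 1 (2.41 CPM) and lowest in overexpression library 3 (1.36 CPM). *Rpl17-ps8* had an SD of 0.23, under the limit used below. Among 71 members with an SD of 0.3 or more, counted once where reads were equal, 15 pairs shared a parent and in 7 of these (46.7%) the lowest library was the same, beside 17.04% of 2470 pairs with different parents. The pairs overlap in their members and share libraries, so this is a description.

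Library 3 stood low in both groups for more of these members than any other combination. Of the 71, 18 were lowest in library 3 within each group, and the other 8 combinations of a lowest overexpression and a lowest control library held 2 to 10 members each. Among the 18 are 5 with a parent on the first 40 Mb of chromosome 17, an interval chosen after the values were seen. It holds the parents of 11 kept members, of which 6 were lowest in library 3 of each group and 5 (*Gm13204*, *Gm14276*, *Rps10-ps2*, *Rpl10a-ps1* and *Gm10232*) were not, beside 16.8% of all kept members with equal reads counted once. Of the 6, 4 are described, also chosen later. *Gm9825* is given above, *Gm15487*, a copy of the proton pump subunit *Atp6v0c*, was at 24.6, 24.5 and 12.3 CPM in overexpression libraries and at 30.5, 23.4 and 12.1 CPM in controls, *Gm14292*, of the methyltransferase partner *Wtap*, at 6.68, 7.12 and 2.49 CPM in overexpression libraries and 11.6, 10.8 and 5.59 CPM in controls, and *Gm13443*, of the glyoxalase *Glo1*, at 8.87, 12.1 and 2.35 CPM in overexpression libraries and 19.6, 17.6 and 10.8 CPM in controls. These 4 copies lie on chromosomes 2 and 6. The level of *Gm9825* in the low libraries was about the same in both groups, as was that of *Gm15487*. No label says that the libraries numbered 3 share anything beyond the number. Over all 15102 genes kept, the deviations of overexpression library 3 correlated at 0.08 with control 3 and at 0.13 with control 1.

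**Figure D5:**
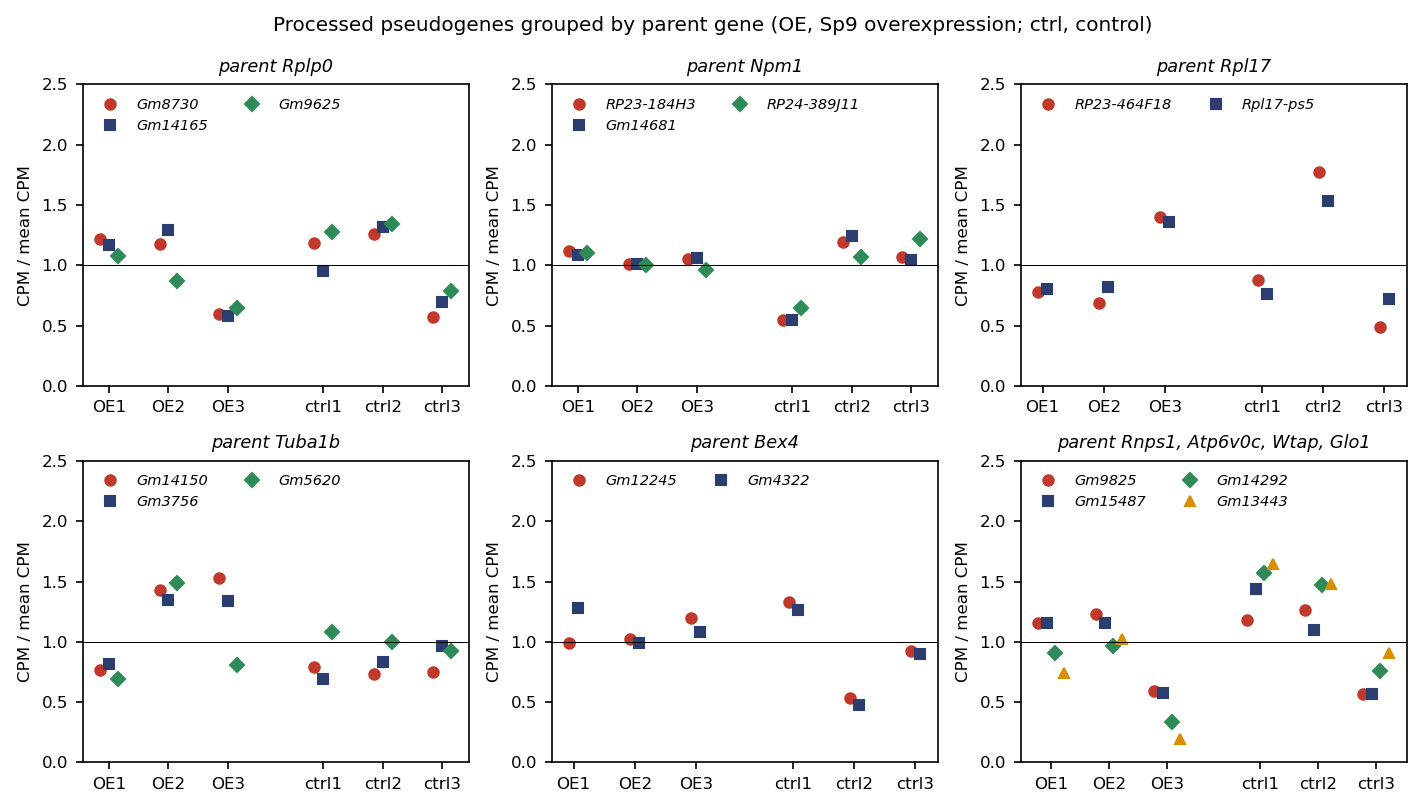
CPM of each processed pseudogene divided by its own mean over 6 libraries (vertical axis) in 3 *Sp9* overexpression libraries (OE, left) and 3 controls (ctrl, right), in 1 panel per parent gene and 1 panel for 4 parents on chromosome 17. The *Rpl17* panel leaves out *Rpl17-ps8* and *Rpl17-ps10*. All 3 *Npm1* copies are lowest in ctrl1. The copies of *Rplp0* and of the 4 chromosome 17 genes are each lowest of their group in OE3 and ctrl3, though *Gm13443* is higher in ctrl3 than in OE1.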

How the data were processed

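Total RNA was sequenced after removal of ribosomal RNA with a stranded kit, and the submitters' processing notes name the build mm10. No source read for this work names the aligner, the counting tool or the handling of reads that match several places (not given in the sources used here). Per gene and library, the authors deposited CPM. Whole reads were recovered by dividing by the value of 1 read (at least 99.97% of values whole within 0.00051 CPM). The authors also deposited columns of their own comparison, a mean log2 CPM, a log2 fold change, a p-value and an adjusted p-value, which were not used.

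The members and lists were chosen with earlier results of these data known. Genes at 0.5 CPM or more in 3 libraries were tested with limma 3.58.1 (R 4.3.3, eBayes with a trend) by genotype alone, two-sided, after log2(CPM + 0.5), with Benjamini-Hochberg adjustment over 15102 genes and a threshold of 0.05. Fold changes are on that scale, which understates those of low genes. The procedure was tested on simulated data. Sums were compared by an exact permutation test (scipy 1.17.1). Parents were taken from the symbol or from blastn 2.17.0 against GENCODE M21, which also gave coordinates and sequences. Named were *Rpsa-ps10*, *Gm13394*, members past the threshold, the 10 highest, up to 10 rises and falls without overlap and the 5 highest SDs at 1 CPM or more, their parents, and any other member named was picked with its values in view. Alternatives were the replicate block, each library left out, the *Xist* level as covariate and low-*Xist* libraries alone, filters, pseudocounts of 0.1 and 1, median-of-ratios scaling, edgeR 4.0.16 and DESeq2 1.42.0 on recovered reads. Replicates differed by more than counting noise (chi-square per degree of freedom 5.74 to 17.5).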

Additional observations from a re-analysis of the deposited data

How the results depend on the processing

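*Rpsa-ps10* and *Gm13394* passed the threshold in all 16 alternatives and *Rpl14-ps1* in 10 of 16. The count of members higher (2) was 1 with the replicate block, among low-*Xist* libraries alone and with the *Xist* level as covariate, and 1 to 3 with a library left out, where *Gm14150* was among those higher without overexpression library 1 and *Gm4366* without control 1. The count lower (1) was 2 at a pseudocount of 0.1, 4 by DESeq2 on recovered reads, and 1 to 2 with a library left out. With the replicate number as a block, *Rpl14-ps1* had an adjusted p of 0.285, and same-numbered libraries correlated at -0.10, 0.20 and 0.08 in their deviations, and not every library correlated best with its own number, so the numbers were not taken as pairs. The log2 difference of *Ldhb* (-0.05) turned to 0.031 among low-*Xist* libraries and to 0.036 with the covariate. The median within-group SD of members (0.25) was 0.32 at a pseudocount of 0.1, 0.20 at 1, 0.23 with a filter at 1 CPM and 0.23 to 0.25 with a library left out, and its median excess over protein-coding genes of similar level (-0.007) was 0.0088 with that filter and -0.017 to 0.0041 with a library left out. The summed difference of 124 CPM was -120 CPM without *Rpsa-ps10*, since that member alone differed by 244 CPM, and 74.6 to 169 CPM with a library left out. Most of the -120 CPM is *Gm13394*, with means of 114 CPM in overexpression libraries and 228 CPM in controls. Depth limits low members: 1 CPM was 20 to 26 reads in a library, and reads that match several copies cannot be told apart by these values.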
